A study of Caenorhabditis elegans with 5 samples.

Results

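The regions described here lie in the central parts of chromosomes II, III and IV of Caenorhabditis elegans and carried a called H3K36me3 peak in wild-type larvae and none in spr-5; met-2 mutant larvae. They were chosen by peak presence alone. The peaks of 4 lists, 2 of the wild-type strain N2 and 2 of the mutant, were merged into 1 region wherever they shared at least 1 bp. A merged region was taken when its midpoint fell between 4.879 and 12.02 Mb on II, 3.722 and 10.34 Mb on III or 3.896 and 12.97 Mb on IV, when at least 1 N2 list had a peak in it, and when neither mutant list had one. Of 7653 merged regions in the genome, 1864 were central by these limits, and 409 of those were called only in wild type. They made up 21.9% of the central regions (Wilson 95% interval 20.1 to 23.9%, counting error only). Over all merged regions of the genome the same rule called 25.6% (1958 regions). Because peak presence chose these regions, the counts, widths and distances below are descriptions and carry no test.

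H3K36me3 is the trimethylated form of a lysine of histone H3 that covers gene bodies where transcription takes place. In the worm the mark is laid down by MET-1, which acts with transcription, and by MES-4, which maintains the mark on genes that were active in the parental germline. SPR-5 is a demethylase of H3K4, a mark of active genes, and MET-2 is a methyltransferase of H3K9, a mark of repressed chromatin. The middle parts of C. elegans autosomes are rich in genes, whereas the arms hold more repeats.

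The study mapped H3K36me3 by chromatin immunoprecipitation and sequencing (ChIP-seq) in starved L1 larvae, the first larval stage, of N2 and of a double mutant with the alleles spr-5 (by101) on chromosome I and met-2 (n4256) on chromosome III. Each sample was a pool of 600 whole larvae from worms grown at 20 °C, so all tissues of the larva were mixed. There were 2 ChIP libraries per genotype and 1 input library, titled as N2 replicate 2, for which no peaks were analysed here. The labels do not say whether the replicates came from separate cultures. The lists hold positions only, with no read count or score, so depth is unknown and a missing peak means that a region did not reach the authors' threshold in that library. Neither the mutant alleles nor the tissue could be checked from peak positions.

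The lists differed in length by replicate number as well as by genotype. In the central domains N2 replicate 1 had 1473 peaks over 3.03 Mb and spr-5; met-2 replicate 1 had 1542 peaks over 2.96 Mb. The replicate 2 lists were shorter, with 1135 peaks over 0.647 Mb in N2 and 705 peaks over 0.296 Mb in the mutant. Coordinates are those of the files, in genome build ce10 per the submitters' processing notes. Genes are not named, because the gene positions at hand belong to another build.

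Most of the 409 wild-type-only regions rested on a single peak in a single library. A peak in N2 replicate 1 alone accounted for 239 of them and a peak in N2 replicate 2 alone for 146, so that 94.1% came from 1 list. The other 24 had a peak in both N2 lists. These 24 were 1.29% of the central regions, beside 1.28% of all merged regions in the genome (98 regions). Those 98 were among 1958 regions called only in wild type over the genome, so most of these also came from 1 list. Of the 1131 central regions called in both genotypes, 447 were in all 4 lists. A further 257 were in both N2 lists with mutant replicate 1 alone, and 3 with mutant replicate 2 alone. As a share of each list's peaks in wild-type-only central regions, the 24 were 9.13% of 263 in N2 replicate 1 and 14.1% of 170 in N2 replicate 2. Among central regions called in 2 lists, the pattern of both replicate 1 lists was the most frequent, with 319 regions. The pattern of N2 replicate 2 with mutant replicate 1 had 22 regions, close in number to the 24 of both N2 lists.

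**Figure D1:**
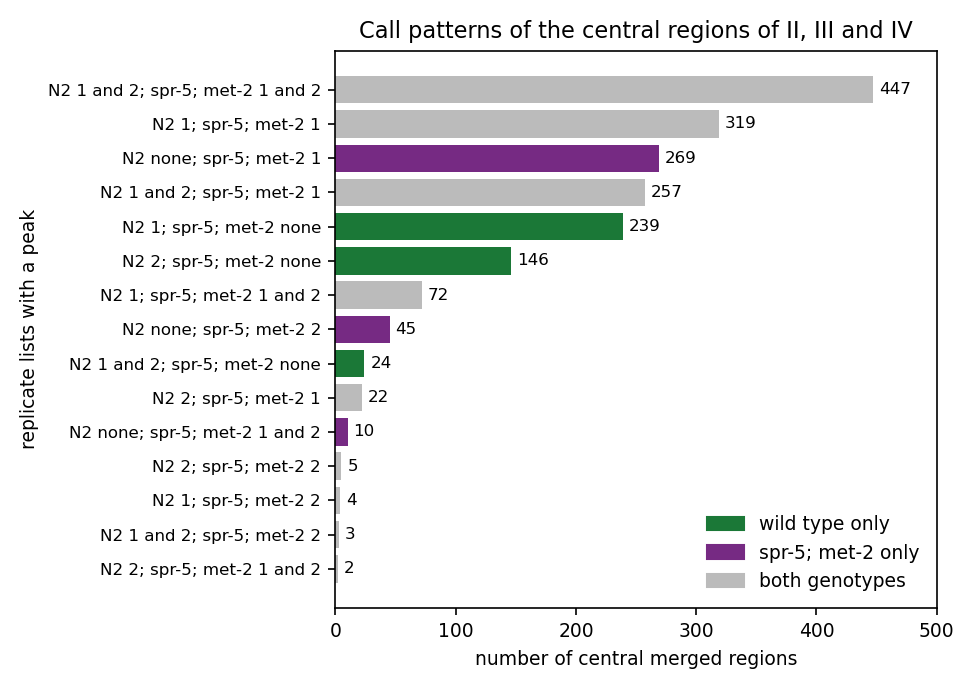
Number of central merged regions (x axis) with each combination of lists holding a peak (y axis, replicate numbers for each genotype). Green bars are the 239, 146 and 24 regions called only in wild type, purple bars those called only in spr-5; met-2, and grey bars those called in both genotypes, of which the 447 in all 4 lists were the most numerous.

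Wild-type-only regions were short. Their median width was 184 bp, with quartiles of 101 and 269 bp and a range of 44 to 2185 bp. Central regions called in both genotypes had a median width of 2432 bp, but these are merges of peaks from 2 to 4 lists and are wider for that reason. Peak by peak, the median was 227 bp in wild-type-only regions against 1319 bp over all central peaks in N2 replicate 1, and 113.5 against 211 bp in N2 replicate 2. Only 48 wild-type-only regions were at least 500 bp wide and 21 at least 1000 bp. All 409 together spanned 111 kb, which is 2.92% of the 3.80 Mb spanned by all central merged regions. Counted within each library, they held 91.6 kb of N2 replicate 1 (3.03% of its central covered length) and 21.1 kb of N2 replicate 2 (3.26%). Number and length thus gave different shares, 21.9% of the central regions and 2.92% of their length.

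The 24 regions called in both N2 lists had a median width of 268 bp and a range of 58 to 1621 bp. They were spread over all 3 chromosomes, with 9 on II, 9 on III and 6 on IV. Covered length was longer in N2 replicate 1 in 17 of them, longer in N2 replicate 2 in 6 and equal in 1. The median covered length was 154 bp in replicate 1 (range 57 to 1621 bp) and 103 bp in replicate 2 (range 44 to 305 bp). The overlap between both N2 peaks of a region ranged from 8 to 217 bp, with a median of 48 bp. In 8 of the 24 regions both N2 lists covered at least 100 bp, in 1 both covered at least 200 bp, and in none did both cover 500 bp. In 6 of them the replicate 2 peak was 44 bp, which is the narrowest width in that list.

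**Figure D2:**
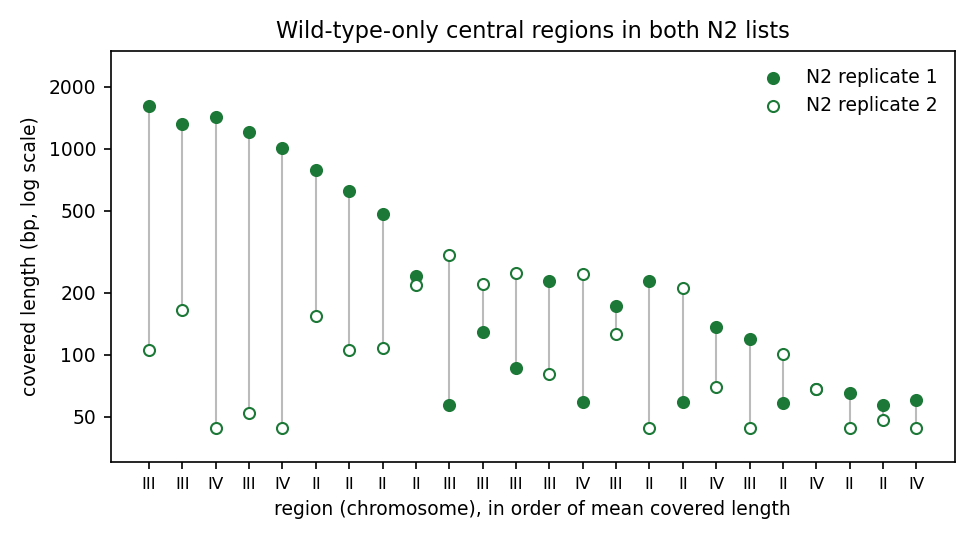
Covered length in bp on a log axis (y) for each of the 24 regions called in both N2 lists (x, labelled by chromosome and ordered by mean covered length), with filled points for N2 replicate 1 and open points for N2 replicate 2. The replicate 1 peak spans 484 to 1621 bp in the 8 regions at the left, where the replicate 2 peak spans 44 to 165 bp.

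Of these 24, the region with the largest mean covered length lay on chromosome III from 4303763 to 4305383. N2 replicate 1 covered 1621 bp of it and N2 replicate 2 covered 105 bp. The nearest peak of mutant replicate 1 was 2405 bp away and that of mutant replicate 2 was 7050 bp away. The second, on III from 8508729 to 8510047, had 1319 bp of N2 replicate 1 peak and 165 bp of N2 replicate 2 peak, and mutant replicate 1 had a peak 855 bp away. In both, the replicate 2 peak lay wholly inside the replicate 1 peak.

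On chromosome IV the longest such regions reached from 8975769 to 8977199 and from 5659496 to 5660511. N2 replicate 1 covered 1431 bp of the first and 1016 bp of the second, and N2 replicate 2 covered 44 bp of each. Their nearest mutant peaks were 1578 and 3383 bp away. A further region on III, from 7728515 to 7729726, had a peak of 1203 bp in replicate 1 and of 52 bp in replicate 2, with a mutant peak 1718 bp away. In the regions on IV the short replicate 2 peak lay wholly inside the long replicate 1 peak, and in that on III 43 of its 52 bp did.

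On chromosome II the region from 9243429 to 9244228 had 786 bp covered in N2 replicate 1 and 154 bp in replicate 2, and a mutant replicate 1 peak lay 853 bp away. That from 9288135 to 9288801 was covered over 624 and 105 bp and was more isolated, with mutant peaks 8298 bp away on its left and 8953 bp away on its right. That from 6127256 to 6127739 was covered over 484 and 108 bp and lay 1182 bp from a mutant peak. The region from 8583064 to 8583303 was covered to a like extent in both lists, at 240 bp in replicate 1 and 217 bp in replicate 2, with the nearest mutant peak 2031 bp away. It was the 1 region in which both lists covered at least 200 bp.

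Distance to the mutant peaks ranged widely among the 24. The nearest to a mutant peak lay on III from 4792965 to 4793286, with a mutant replicate 1 peak 112 bp beyond its end. It was covered over 57 bp in N2 replicate 1 and 305 bp in replicate 2. The next, on IV from 7081890 to 7082146 and on II from 11863316 to 11863542, lay 267 and 724 bp from a mutant peak. At the other end, the region on IV from 11899508 to 11899567 lay 39826 bp from any mutant peak, on II from 6833896 to 6833996 the distance was 11369 bp, and on III from 9866085 to 9866363 it was 10807 bp. A short region on II from 11398797 to 11398865 was 7063 bp from a mutant peak. These 4 isolated regions were 60, 101, 279 and 69 bp wide in this order, and the region on II 8298 bp from a mutant peak was 667 bp wide.

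The 239 regions called in N2 replicate 1 alone had a median width of 228 bp, with quartiles of 149.5 and 362.5 bp. The 3 with the largest covered length were 2185 bp on III from 7771487 to 7773671, 2105 bp on II from 9337854 to 9339958 and 1894 bp on II from 9362400 to 9364293. Mutant replicate 1 had peaks close to all 3, at 1312, 337 and 1193 bp. The merged regions that held these nearest mutant peaks were short, at 89, 294 and 424 bp, and none of them was called in N2. The 3 regions of this class farthest from a mutant peak were all on IV. They lay from 5802197 to 5802339, from 12782412 to 12782551 and from 10668967 to 10669213, at 42168, 40791 and 26276 bp from a mutant peak, and were 143, 140 and 247 bp wide.

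The 146 regions called in N2 replicate 2 alone were shorter, with a median width of 117 bp and quartiles of 47.75 and 167.25 bp. The widest lay on III: 803 bp from 6546206 to 6547008, 582 bp from 4243345 to 4243926 and 368 bp from 7588304 to 7588671. Their nearest mutant peaks were 689, 10871 and 3157 bp away. The 3 farthest from a mutant peak lay on IV from 4869996 to 4870149, on IV from 5806500 to 5806608 and on II from 7430725 to 7430768, at 58446, 37899 and 34518 bp. These were 154, 109 and 44 bp wide. The second of them lay in the same stretch without mutant peaks as the N2 replicate 1 region from 5802197. Of the 170 N2 replicate 2 peaks in wild-type-only regions, 33 had the list's narrowest width of 44 bp. Over all central peaks of that list, 58 of 1135 did. The narrowest width was 57 bp in N2 replicate 1, where 8 of the 263 peaks had it. Over all central peaks of N2 replicate 1, 10 of 1473 did.

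Mutant peaks were often near, and by the rule none overlapped. The gap between a wild-type-only region and the nearest peak of either mutant list had a median of 1728 bp, with quartiles of 669 and 4450 bp and a range of 0 to 58446 bp. The median was 1946 bp over regions called in N2 replicate 1 and 1577 bp over those called in N2 replicate 2 (mean 1761.5 ± 261 bp, SD, n = 2). The 24 regions in both N2 lists count in each median, and both medians use the same mutant peaks. This SD is therefore not a spread between independent replicates. A mutant peak lay under 200 bp away in 45 regions (11.0%, interval 8.33 to 14.4%), under 1000 bp in 141 (34.5%, interval 30.0 to 39.2%) and under 5000 bp in 318 (77.8%). Only 44 regions were more than 10 kb from a mutant peak, and their median width was 105 bp. Mutant peaks within 5000 bp on both sides flanked 130 regions (31.8%). The shares were alike in the opposite direction, for the 324 central regions called only in the mutant. An N2 peak lay under 200 bp from 13.6% of those, under 1000 bp from 34.6% and under 5000 bp from 75.6%. N2 peaks within 5000 bp on both sides flanked 30.6% of them. Nearness was thus not particular to the wild-type-only regions.

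**Figure D3:**
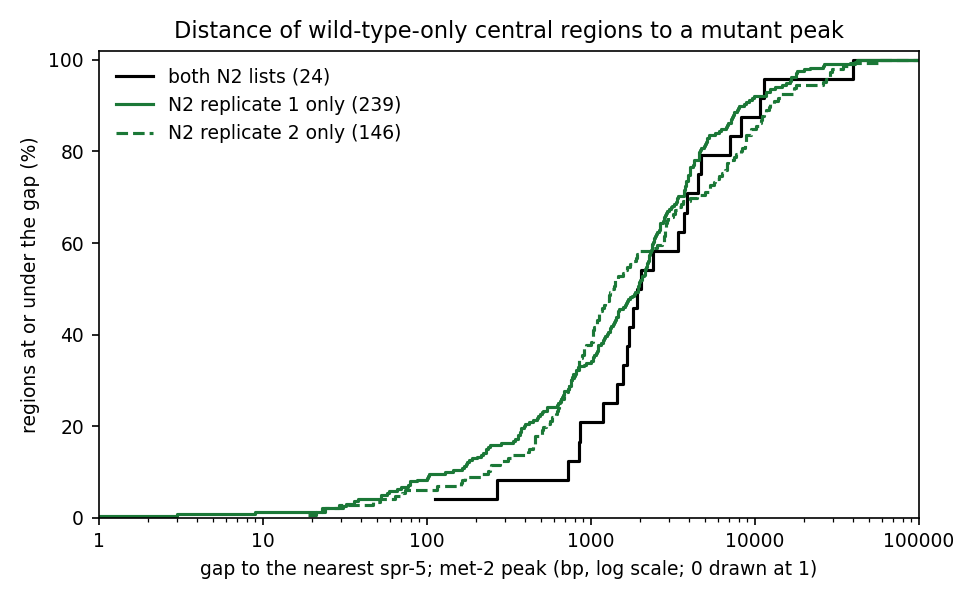
Cumulative percentage of wild-type-only central regions (y axis) at or under a given gap to the nearest spr-5; met-2 peak (x axis, bp, log scale), drawn apart for the 24 regions in both N2 lists, the 239 in replicate 1 alone and the 146 in replicate 2 alone. The medians are 1969.5, 1946 and 1349.5 bp, and all 3 lines pass 70% by 5000 bp.

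Regions called in both N2 lists had a median gap of 1969.5 bp, with quartiles of 1373.25 and 4563.5 bp. Regions in replicate 1 alone had a median of 1946 bp and regions in replicate 2 alone a median of 1349.5 bp. A mutant peak lay under 1000 bp away from 5 of the 24 (20.8%, interval 9.24 to 40.5%), 81 of the 239 (33.9%, interval 28.2 to 40.1%) and 55 of the 146 (37.7%, interval 30.2 to 45.8%). These intervals overlap. The nearest mutant peak came from the replicate 1 list in 392 of the 409 regions (95.8%) and from the replicate 2 list in 17. Mutant replicate 1 was also the larger list, with 1542 central peaks over 2.96 Mb against 705 over 0.296 Mb. The median gap was 1809 bp to mutant replicate 1 and 9041 bp to the shorter list of mutant replicate 2.

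Regions of 1 N2 list could also be set against the other N2 list. Those in N2 replicate 1 alone lay at a median of 1967 bp from a peak of mutant replicate 1, 4716 bp from a peak of N2 replicate 2 and 8329 bp from a peak of mutant replicate 2. Those in N2 replicate 2 alone lay at a median of 1404.5 bp from mutant replicate 1 and 1566 bp from N2 replicate 1. A peak of the other N2 library lay under 1000 bp away in 8.79% of the first class and 34.2% of the second. In both classes the list with the fewest central peaks, mutant replicate 2, was the farthest away, with a median of 11102.5 bp for the second class. Neighbouring central regions of any kind were separated by a median of 3471 bp, counted from each region to the next. The distances above take the nearer side and are shorter by construction, so this spacing is not a like-for-like base for them. Within a list no gap was below 1201 bp, so the shorter distances are between lists.

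The nearest merged region with a mutant peak was taken by its edge, which can belong to an N2 peak. It need not hold the nearest mutant peak, and N2 peaks that extend a region bring it nearer. This region was itself called in at least 1 N2 list for 281 of the 409 (68.7%, interval 64.1 to 73.0%). It was called in all 4 lists for 92 (22.5%, interval 18.7 to 26.8%). Among all central regions with a mutant peak these shares were 77.7% (1131 of 1455) and 30.7% (447 of 1455). For the other 128 wild-type-only regions (31.3%, interval 27.0 to 35.9%) the nearest mutant-called region was called in the mutant alone. Mutant-only regions were 22.3% of the central regions with a mutant peak.

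Wide N2 peaks were rarely without a counterpart in the mutant, whereas narrow ones were found both with and without one. A counterpart here was any mutant peak in the same merged region, so a wider peak was likelier to have one by construction. How much of the trend with width this accounts for was not tested. In N2 replicate 1, 37 of 87 central peaks under 100 bp lay in wild-type-only regions (42.5%, interval 32.7 to 53.0%), as did 72 of 134 of 100 to 199 bp (53.7%, interval 45.3 to 62.0%) and 108 of 247 of 200 to 499 bp (43.7%). The share was 15.1% at 500 to 999 bp (25 of 166), 6.51% at 1000 to 1999 bp (19 of 292) and 0.366% at 2000 bp or more (2 of 547, interval 0.100 to 1.32%). In N2 replicate 2 it went from 32.1% under 100 bp (77 of 240) through 23.0% at 100 to 199 bp (69 of 300) to 9.44% at 200 to 499 bp (22 of 233). None of its 142 peaks of 1000 to 1999 bp and none of its 68 wider ones lay in a wild-type-only region, which allows shares of up to 2.11% and 4.41% (3 counts of the total).

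**Figure D4:**
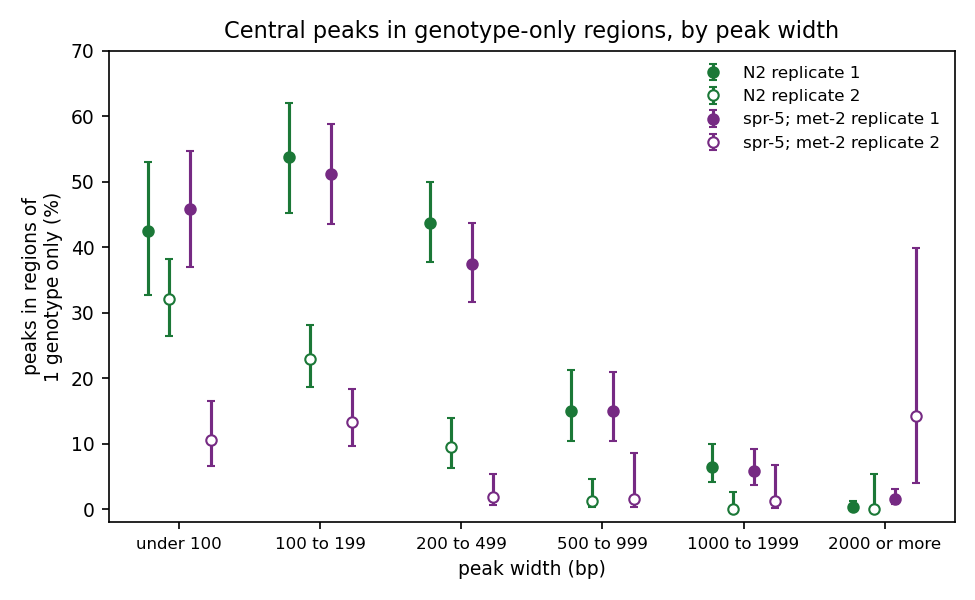
Percentage of central peaks that lie in regions called in 1 genotype only (y axis, with Wilson 95% intervals) by peak width in bp (x axis), for each of the 4 libraries. In both replicate 1 lists the share is above 35% under 500 bp and below 2% at 2000 bp or more, and N2 and spr-5; met-2 points of replicate 1 have overlapping intervals in every width class.

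The same shares in the mutant replicate 1 list, turned round to peaks with no N2 counterpart, were 45.8% under 100 bp (54 of 118), 51.2% at 100 to 199 bp (83 of 162), 37.5% at 200 to 499 bp (90 of 240) and 1.62% at 2000 bp or more (9 of 557). Each interval overlapped that of N2 replicate 1. The mutant replicate 2 list differed from N2 replicate 2. Of its central peaks under 100 bp, 10.6% (16 of 151, interval 6.63 to 16.5%) had no N2 counterpart. The share in N2 replicate 2 was 32.1% (interval 26.5 to 38.2%). This sets 1 library against 1, with 705 central peaks in mutant replicate 2 and 1135 in N2 replicate 2. Each was also matched to different lists, and the cause of the difference was not tested. At 2000 bp or more the share in mutant replicate 2 was 14.3%, from 2 of 14 peaks (interval 4.01 to 39.9%). Peaks of the same width class also differed in whether the second N2 list held the region. Widths were not matched within a class. Among N2 replicate 1 peaks of 200 to 499 bp, 4 of 108 in wild-type-only regions were in regions also called in N2 replicate 2, against 54 of 139 in regions shared with the mutant. At 1000 to 1999 bp the counts were 5 of 19 and 146 of 273. Shared regions can be longer than the peak counted, since they include the mutant's peaks.

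Along the chromosomes the wild-type-only regions were spread through all 3 domains. There were 108 on II, 165 on III and 136 on IV, or 15.1, 24.9 and 15.0 per Mb. As a share of the central regions of the chromosome these were 20.3% (interval 17.1 to 23.9%), 23.1% (interval 20.1 to 26.3%) and 22.0% (interval 18.9 to 25.5%), so chromosome III had more of them per Mb but a share within the intervals of the others. Median width was 194.5 bp on II, 190 bp on III and 164.5 bp on IV, and median gap to a mutant peak was 2335.5, 1488 and 1648 bp. With each domain cut into 5 equal parts, the share ranged from 16.0% in part 1 of II (16 of 100) to 28.6% in part 3 of IV (42 of 147). Over the 3 chromosomes together the parts ranged from 19.0 to 23.9%.

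**Figure D5:**
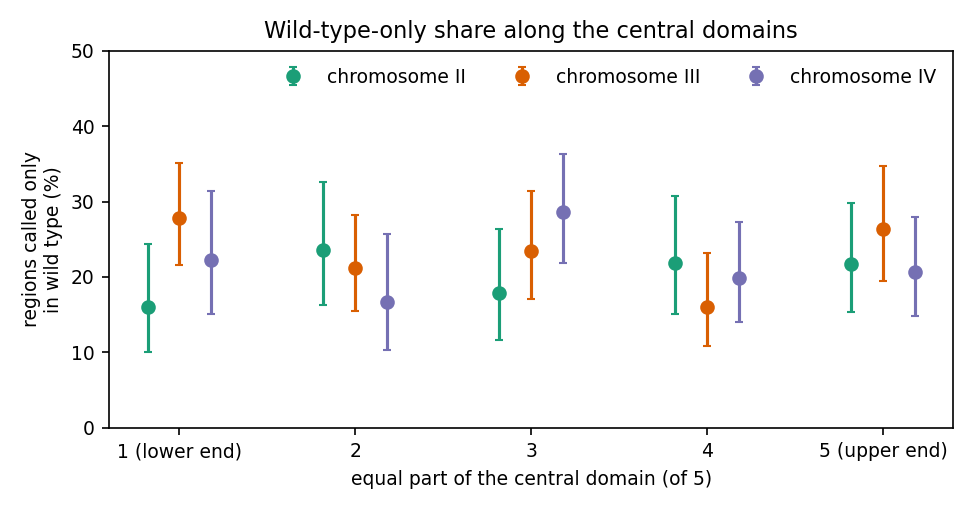
Percentage of central merged regions called only in wild type (y axis, with Wilson 95% intervals) in each of 5 equal parts of the central domain (x axis), by chromosome. The 15 points lie between 16.0 and 28.6%, without a common rise or fall along the domains.

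Regions of the same call pattern in the arms of II, III and IV made up 24.1% of the arm regions (510 of 2118, interval 22.3 to 25.9%), beside 21.9% in the centres. The share for both N2 lists was 1.04% in the arms (22 regions, interval 0.687 to 1.57%) and 1.29% in the centres (24 regions, interval 0.867 to 1.91%). The intervals overlap in both cases.

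In the opposite direction, 324 central regions had a peak in at least 1 mutant list and in neither N2 list (17.4%, interval 15.7 to 19.2%), and 10 of them were in both mutant lists. Over all merged regions these shares were 21.7% and 0.405%. Wild-type-only central regions were therefore more numerous than mutant-only ones over all lists, 409 against 324. In the arms of II, III and IV the order was the other way, with 510 against 548 regions. The order in the centres also depended on the replicate. Within replicate 1, where the lists were of like length, 271 central regions were called in N2 alone and 304 in the mutant alone. Within replicate 2, where the mutant list was the shorter, the counts were 768 and 335. Of those 768, 170 overlapped a region of the 409 and 598 did not. Median width was 184 bp in the wild-type-only and 187.5 bp in the mutant-only regions, and the median gap to the other genotype was 1728 and 1573 bp. In total length the mutant-only regions spanned more, 126 kb against 111 kb, with 56 against 48 regions of at least 500 bp. Mutant replicate 1 decided much of the wild-type-only count: without it 1166 central regions, 290 of them in both N2 lists, had no mutant peak. Without N2 replicate 1 the count was 221, and without N2 replicate 2 it was 264.

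At the limit of 1 shared bp, wild-type-only regions passed into shared ones by small steps. A region on III from 10075219 to 10075507 touched a mutant peak with a gap of 0 bp, and those on III from 5681902 to 5682004 and on IV from 11630897 to 11631104 were 3 and 9 bp away. Just outside the rule, the regions on IV from 11663838 to 11664077 and from 12692297 to 12693688 shared 6 and 7 bp between the genotypes. In all, 29 wild-type-only regions lay under 100 bp from a mutant peak, and 112 of the 1131 central regions called in both genotypes shared under 100 bp. At the domain limits, the nearest wild-type-only region inside was 5.75 to 124 kb from the limit and the nearest outside 12.8 to 67.0 kb.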

How the data were processed

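H3K36me3 ChIP-seq peak lists of 2 N2 and 2 spr-5; met-2 libraries were used. Reads were 50 bp single-end and chromatin was fixed with 1% formaldehyde, per the labels' protocols. The deposited lists hold the chromosome, start and end of each broad peak, with no count or score. The submitters' processing notes name FastQC, Bowtie2, deepTools, MACS2, bedtools and build ce10. Versions, control and threshold are not given in the sources used here.

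Positions were made 1-based. Peaks sharing at least 1 bp were merged with Python 3.11.15, and gaps were measured edge to edge. Wilson 95% intervals (scipy 1.17.1) cover counting error only. Code was checked on simulated data. Groups and replicate numbers came from the titles. Alternatives changed peak width, joining, overlap, domain limits, list length and libraries.

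Regions were named by a rule: the 10 in both N2 lists with the largest mean covered length, the 5 farthest from and 3 nearest to a mutant peak, and, for each single-list class, the 3 largest and 3 farthest. The regions and rules were chosen with earlier results of these data known. Genes and sequence were not used, since no genome of the lists' build was at hand.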

Additional observations from a re-analysis of the deposited data

How the results depend on the processing

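The number of wild-type-only central regions was within 1.5 times 409 when N2 peaks were counted singly (485), when a peak had to cover 50% of a region (582) and with domain limits drawn in by 500 kb (345). It was 144 with peaks of at least 500 bp, 267 with peaks under 2000 bp apart joined, 171 with equal numbers of the widest peaks, 268 with mutant peaks extended by 1000 bp, 271 within replicate 1 and 768 within replicate 2. Leaving out 1 library gave 221 to 1166 regions. With peaks of at least 500 bp, only 48 of the 144 overlapped one of the 409, because that setting also removes short mutant peaks. Within replicate 2, 170 of the 768 overlapped one of the 409.

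The 24 regions in both N2 lists became 6 with peaks of at least 500 bp and 27 to 290 without 1 mutant library. They became 13 with peaks of at least 100 bp, a setting chosen after seeing the data, as was merging peaks that only touch, which gave 407 and 24 regions.

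The median gap of 1728 bp was 3325 bp with peaks of at least 500 bp, 2859 bp with joined peaks and 1463 bp with single peaks. It was 758.5 bp with 50% cover and 4852 bp with equal numbers of peaks. Dropping regions under 1000 bp from a mutant peak gave 3248.5 bp. The median was 5332.5 bp within replicate 2 and 1126 to 8307 bp without 1 library. For regions in both N2 lists, 1969.5 bp became 6136.5 bp with peaks of at least 500 bp and 3383 bp with joined peaks. It became 0 bp with 50% cover (a mutant peak may then overlap) and 10445 bp with equal numbers. Dropping regions under 1000 bp from a mutant peak gave 3383 bp. Leaving out 1 mutant library gave 2343 to 11318.5 bp. Removing mutant peaks, or dropping regions near one, lengthens the gap by construction; the causes of the other shifts were not tested. No paired analysis was possible because no model was fitted to which a replicate block could be added; within replicate numbers, 271 regions were N2-only and 304 mutant-only in replicate 1, and 768 and 335 in replicate 2. Read depth is unknown, so whether a missing mutant peak reflects depth was not tested.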

Other observations

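Of the 48 wild-type-only central regions at least 500 bp wide, 5 lay more than 5000 bp from any mutant peak; they are named here after their values were seen. One is the region on II from 9288135 to 9288801, called in both N2 lists. On IV, N2 replicate 1 alone covered 1335 bp from 5662337 to 5663671, 6224 bp from a mutant peak, in the same stretch without mutant peaks as the region in both N2 lists that ends at 5660511. Also in N2 replicate 1 alone were the regions on IV from 9218461 to 9219646, 8658 bp from a mutant peak, and from 9075476 to 9076007, 17846 bp from one. The fifth, on III from 4243345 to 4243926, was in N2 replicate 2 alone, 10871 bp from a mutant peak.

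Wild-type-only regions were 21.9% of the central regions and formed 328 uninterrupted runs in the order of central regions. Of these runs, 264 held 1 region, 50 held 2, 11 held 3 and 3 held 4. The runs of 4, also picked after their values were seen, spanned 5.42 kb on II from 10262740 to 10268164, 9.45 kb on III from 4243345 to 4252798 and 8.78 kb on III from 4296606 to 4305383. The last included 2 of the 24 regions in both N2 lists, 1 of them with the largest mean covered length of the 24. Whether runs of 1 region, or longer runs, differ in number from what the share and spacing of the regions give was not tested.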
